A study of Mus musculus with 22 samples.

Results

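The collagen genes were taken as the rows of the whole-testis count table whose symbol begins with Col, a number, the letter a and a further number. The rule found 45 of 17931 gene symbols. Of these, 44 encode collagen chains and the other, Col4a3bp, encodes a ceramide transfer protein that only shares the start of its name. RNA was sequenced from whole testes of 3 wild-type (WT) and 3 Mlx knockout (KO) mice, all aged 7 months and paired as littermates, with the WT males being breeders of proven fertility. Mlx encodes a transcription factor of the basic helix-loop-helix leucine zipper family that works with glucose-responsive partners. The KO was constitutive, in all tissues. The gene was targeted in mouse embryonic stem cells, and exons 3 to 6 were removed by breeding the chimeric mice to Meox2-Cre mice. The Meox2-Cre allele was later bred out. The question asked of these libraries was how loss of Mlx changes the testis transcriptome. Mlx itself had 128, 96 and 98 counts in the WT libraries and 94, 109 and 102 counts in the KO libraries (log2 fold change -0.18 ± 0.14, SE, adjusted p = 0.326 in edgeR, and ± is the SE of a fold change throughout). The count covers the whole gene, so it does not check the genotype labels, and each direction below compares the libraries labelled KO with those labelled WT.

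Collagens are extracellular matrix proteins whose chains wind around each other into a rope-like helix. Fibrillar collagens (types I, II, III, V, XI, XXIV and XXVII) form the fibrils that carry tension, and type IV collagen forms the mesh of basement membranes. Type VI makes beaded filaments next to cells, fibril-associated collagens with interrupted helices (FACIT) decorate fibrils, multiplexins sit in basement membrane zones, and transmembrane collagens span the cell surface. In the testis a basement membrane underlies the seminiferous epithelium, with contributions from Sertoli and peritubular myoid cells, and fibrils lie in the tunica albuginea and around tubules and vessels.

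The libraries held 16674678 to 19742726 counts each. Values are given as CPM (counts per 1000000 counts), with library sizes adjusted by TMM factors (0.943 to 0.961 in WT, 1.02 to 1.07 in KO), and the lowest tested members rest on few reads. Among the KO libraries KO1 stood apart: the chi-square per degree of freedom of its counts over genes was 8.26 against KO2 and 8.25 against KO3, but 2.73 between KO2 and KO3 and 2.98 to 4.26 between WT libraries. Of the 44 collagen genes, 42 passed the filter on low counts. Col10a1 (0 to 1 counts in each library) and Col9a2 (1 to 4 counts) did not, and no fold is given for them.

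In the KO testes, 14 of the 42 tested collagen genes rose and 9 fell. Whole testis mixes cell types, so fewer cells of a type and less RNA per cell cannot be told apart. Of all 14640 genes tested, 24.8% rose and 20.6% fell at the threshold used here, 0.05 on the adjusted p of the quasi-likelihood test in edgeR. The collagen shares were 33.3% and 21.4%, so the share that fell was near that of all genes. The median log2 fold change (LFC, KO minus WT) was 0.06 over the 42 collagen genes and 0.03 over all genes. The members that rose included the interstitial fibrillar chains Col1a1, Col1a2 and Col3a1, the basement membrane chains Col4a1, Col4a2, Col4a4 and Col4a5, the beaded filament chains Col6a1, Col6a2 and Col6a6, and the multiplexin Col18a1. Col5a3, Col11a1 and Col14a1 made up the rest. The members that fell were Col2a1, Col5a1, Col9a1, Col16a1, Col17a1, Col20a1, Col22a1, Col23a1 and Col25a1.

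Over all 42 tested collagen genes, every KO library lay above every WT library in 17 (40.5%) and below in 10 (23.8%), against 30.3% and 25.9% of all genes tested. The called members, which the same libraries selected, were all among them. The rises were larger than the falls: 7 of the 14 rises exceeded an LFC of 1, and the falls ran from -0.71 to -0.21. Summed over the 14 genes that rose, the level was 147, 151 and 171 in WT and 280.2, 318 and 325 in KO (CPM). The sum over the 9 genes that fell was 559, 553 and 539 in WT and 442, 428 and 436 in KO (CPM). The 19 genes that were not called summed to 165, 156 and 162 in WT and 153, 167 and 161 in KO (CPM), with overlapping groups. These groups were formed by the calls in the same libraries, so their sums are no further test.

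Without KO1, the library that stood apart, 15 collagen genes were called higher and 6 lower, with 13 of the 14 rises and 6 of the 9 falls kept. Of all 14787 genes tested in that fit, 3990 were called higher and 3405 lower, against 3634 and 3015 of 14640 with every library. Col4a4, Col9a1, Col17a1 and Col25a1 were lost, and Col6a5 and Col26a1 were added as higher.

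How the libraries were scaled moved the balance of these calls. With library size alone, which shifted the median LFC of all genes from 0.03 to 0.16, 18 collagen genes were called higher and 5 lower (36.5% and 8.66% of all genes were called so). In another fit, trends of each library's log2 CPM with exon length and GC content were removed. Removing them also recentred each library on its mean over genes, and the median LFC of all genes shifted to -0.11. In that fit 12 collagen genes were called higher and 15 lower (18.6% and 35.0% of all genes were called so). The part of the recentring in these calls was not tested. The first scaling lost the calls of Col9a1, Col16a1, Col17a1 and Col25a1 and added Col4a3, Col6a5, Col13a1 and Col26a1 as higher. The second lost those of Col4a4 and Col14a1 and added Col4a6, Col6a4, Col9a3, Col15a1, Col24a1 and Col27a1 as lower. No called member changed sign under any of the 16 alternatives.

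**Figure D1:**
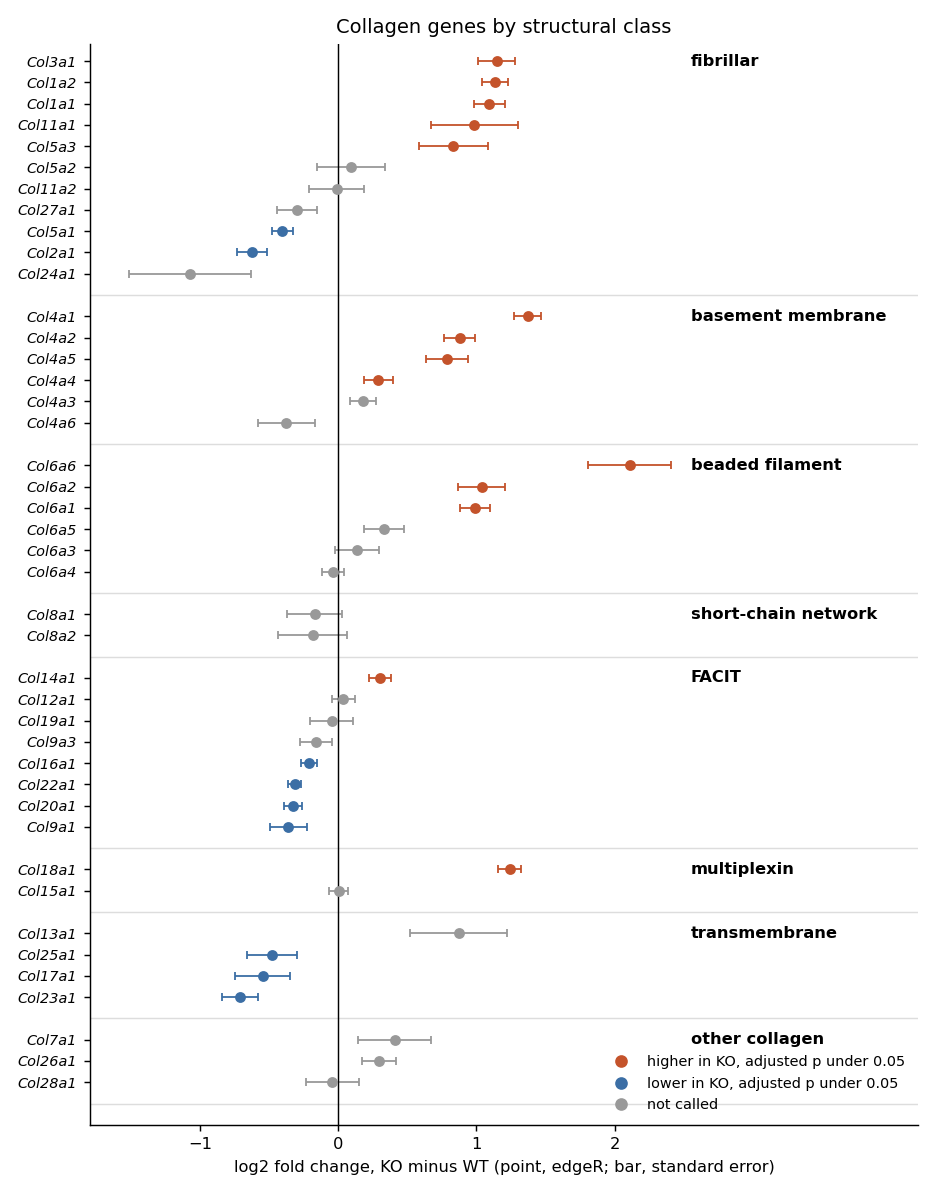
Log2 fold change (KO minus WT) of the 42 tested collagen genes with standard error bars, grouped by structural class, from edgeR on 3 WT and 3 KO libraries. Orange points rose and blue points fell at an adjusted p under 0.05, and grey points were not called. The rises sit among the fibrillar, basement membrane and beaded filament chains and in Col14a1 and Col18a1, and the falls mostly among FACIT and transmembrane members.

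Promoter sequence is shown for some called members: Col3a1 and Col6a2, which rose, and Col5a1 and Col23a1, which fell. They are part of the called members with a window, the 250 bases before a RefSeq start, that held no annotated exon. Capitals mark matches to TATAAA or CCAAT on either strand. The sequences are from the RefSeq promoter table (GRCm38.p6), 5′ to 3′ on the strand of the gene.
Col3a1, chr1:45311288-45311537, plus strand: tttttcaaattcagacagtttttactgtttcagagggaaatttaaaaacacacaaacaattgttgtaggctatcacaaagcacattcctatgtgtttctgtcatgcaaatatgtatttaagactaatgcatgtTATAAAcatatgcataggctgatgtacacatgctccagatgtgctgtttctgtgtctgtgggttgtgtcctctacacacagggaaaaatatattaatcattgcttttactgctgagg
Col6a2, chr10:76623631-76623880, minus strand: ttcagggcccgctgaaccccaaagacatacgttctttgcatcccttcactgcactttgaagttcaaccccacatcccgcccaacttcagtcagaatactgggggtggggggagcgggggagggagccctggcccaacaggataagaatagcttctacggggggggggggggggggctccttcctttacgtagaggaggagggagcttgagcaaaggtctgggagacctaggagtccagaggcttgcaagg
Col5a1, chr2:27886175-27886424, plus strand: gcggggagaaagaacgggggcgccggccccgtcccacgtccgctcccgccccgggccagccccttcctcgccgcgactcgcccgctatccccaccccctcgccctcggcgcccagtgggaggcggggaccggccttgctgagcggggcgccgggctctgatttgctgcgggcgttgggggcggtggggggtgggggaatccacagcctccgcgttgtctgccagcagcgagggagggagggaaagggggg
Col23a1, chr11:51289670-51289919, plus strand: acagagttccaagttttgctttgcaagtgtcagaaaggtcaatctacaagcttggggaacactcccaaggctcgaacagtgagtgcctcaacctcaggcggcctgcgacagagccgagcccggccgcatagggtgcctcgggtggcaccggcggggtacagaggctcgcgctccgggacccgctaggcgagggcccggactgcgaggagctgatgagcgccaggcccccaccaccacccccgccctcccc
Base composition differed widely among them, at 35.2% GC for Col3a1, 59.2% for Col6a2, 76.4% for Col5a1 and 66.0% for Col23a1. Col3a1 held TATAAA, and the other 3 windows held neither motif. Windows of Col5a3, Col11a1 and Col25a1, not printed, were also free of exons, and each held CCAAT. A window of Col9a1, not printed either, was free of exons and held neither motif. Another window of Col6a2 had 226 of its 250 bases in exons. The table had 38 windows for 35 of the 44 collagen genes. CACGTG, the palindromic E-box of basic helix-loop-helix zipper factors such as MLX, was searched too: it was in 0 of the 38 windows and in 6.02% of all 32851 windows of the same length. Bases beyond these windows and other forms of the E-box were not searched. The count does not show whether the collagen genes carry MLX sites. CCAAT was in 13 of the 38 and in 33.8% of all windows, and TATAAA in 5 of the 38 and in 12.4% of all. CCAAT was found in the windows of both Col4a1 and Col4a2, which lie in exons of the neighbour and are not printed.

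Fibrillar collagens split in both directions: of 11 tested, 5 rose, 2 fell and 4 were not called. Col1a1 and Col1a2, the chains of type I collagen, the main collagen of most connective tissue, both rose about equally. Col1a1 had 6.70, 8.01 and 7.56 CPM in the WT libraries and 14.2, 16.4 and 16.8 CPM in the KO libraries (log2 fold change 1.09 ± 0.11, adjusted p = 3.46e-05). Col1a2 had 17.0, 17.9 and 20.2 CPM in the WT libraries and 36.0, 40.7 and 44.2 CPM in the KO libraries (log2 fold change 1.13 ± 0.09, adjusted p = 1.00e-05). Col3a1, whose type III fibrils run with type I in soft tissue, had 11.3, 10.2 and 14.5 CPM in the WT libraries and 22.5, 27.9 and 29.7 CPM in the KO libraries (log2 fold change 1.15 ± 0.14, adjusted p = 8.49e-05). In these 3 genes the lowest KO library was well above the highest WT library. Col1a1 lies at chr11:94936224-94953042 on the plus strand, Col1a2 at chr6:4504814-4541544 on the plus strand and Col3a1 at chr1:45311538-45349706 on the plus strand (mm10, GENCODE M21 gene bounds).

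Type V collagen regulates fibril diameter and type XI is its cartilage counterpart. Their chains differed in their calls. Col5a1, of the GC-rich window above, fell, with 25.8, 27.5 and 28.4 CPM in the WT libraries and 20.1, 21.3 and 20.3 CPM in the KO libraries (log2 fold change -0.40 ± 0.07, adjusted p = 0.00115). Col5a2 was not called, at 2.37, 1.46 and 1.80 CPM in WT and 2.01, 1.60 and 2.44 CPM in KO (log2 fold change 0.09 ± 0.25, adjusted p = 0.787), and the groups overlapped. Col5a3 rose by an LFC of 0.83 ± 0.25 (adjusted p = 0.0178) from WT levels of 0.827 to 1.00 CPM. That call was lost in DESeq2 (0.82, and 0.81 with the littermate block), with trends removed and the block (0.65) and on leaving out a library (0.77 without WT2, 0.80 without KO2 and 0.76 without KO3).

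Col11a1 had 1.11, 2.23 and 2.20 CPM in the WT libraries and 2.42, 5.09 and 3.39 CPM in the KO libraries (log2 fold change 0.99 ± 0.32, adjusted p = 0.0246), so the lowest KO library was just above the highest WT library. Its call was lost on leaving out either of 2 libraries (0.71 without WT1 and 0.67 without KO2). Col11a2, its partner chain, was at 2.37, 2.23 and 2.65 CPM in WT and 1.96, 2.60 and 2.65 CPM in KO (log2 fold change -0.01 ± 0.20, adjusted p = 0.965).

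Col2a1, the chain of type II collagen, known as the main collagen of cartilage, was the most abundant fibrillar member in WT and fell. It had 64.7, 61.5 and 54.1 CPM in the WT libraries and 46.8, 34.5 and 35.5 CPM in the KO libraries (log2 fold change -0.62 ± 0.11, adjusted p = 9.15e-04). Of the genes listed as markers of cartilage and bone, Comp was abundant in every library. It was at 269, 272 and 276 CPM in WT and 222, 186 and 186 CPM in KO (log2 fold change -0.46 ± 0.07, adjusted p = 3.46e-04). Acan went the other way and was called higher, averaging 1.15 CPM in WT and 2.91 CPM in KO (log2 fold change 1.33 ± 0.29, adjusted p = 0.00315). Bglap, Ibsp and Sp7 averaged at most 0.388 CPM in either genotype. The part of such markers in the level of Col2a1 was not tested.

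The remaining fibrillar members were not called. Col24a1 had the lowest fitted LFC of all collagens (-1.07 ± 0.44, adjusted p = 0.069), with 3.22, 1.14 and 1.07 CPM in the WT libraries and 0.671, 1.22 and 0.741 CPM in the KO libraries. WT1 stood far above the other 5 libraries, and the groups overlapped. With littermate pair as a block in edgeR, the fall was called (adjusted p = 0.041), as it was without WT3 (-1.35) and with exon length and GC trends removed (-1.23). Without WT1 the LFC was -0.34 (adjusted p = 0.481), and in DESeq2 with the block it was not called either (-0.93, adjusted p = 0.22). Col27a1 was lower in 3 of 3 pairs without being called (LFC -0.30 ± 0.15, adjusted p = 0.112), and reached the threshold without KO2 (-0.43) and with trends removed (-0.47).

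**Figure D2:**
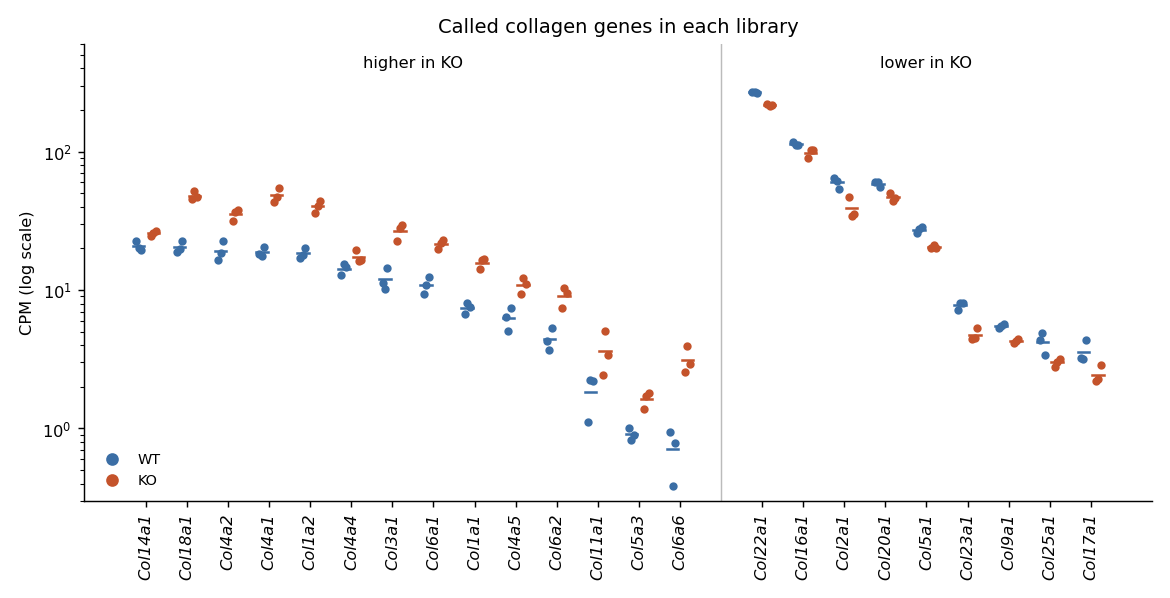
CPM on a log scale of the 23 called collagen genes in each of the 3 WT (blue) and 3 KO (orange) libraries, with bars at the group means. The 14 genes that rose are on the left and the 9 that fell on the right, each ordered by WT mean, and within each gene the points of WT and KO do not overlap. The same libraries selected these genes.

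Among the 6 basement membrane chains, 4 rose, none fell and 2 were not called. The class summed to 68.1, 69.5 and 80.4 in WT and 117, 128 and 134 in KO (CPM). Col4a1 and Col4a2, which together build the ubiquitous type IV network, both rose. Col4a1 had 18.2, 17.6 and 20.4 CPM in the WT libraries and 43.2, 47.4 and 55.0 CPM in the KO libraries (log2 fold change 1.37 ± 0.10, adjusted p = 4.08e-06). Col4a2 had 16.6, 18.6 and 22.5 CPM in the WT libraries and 31.5, 36.7 and 37.8 CPM in the KO libraries (log2 fold change 0.88 ± 0.11, adjusted p = 1.35e-04). These genes lie head to head on chromosome 8, Col4a1 at chr8:11198423-11312826 on the minus strand and Col4a2 at chr8:11312805-11449287 on the plus strand, with 22 bases of overlap, so reads over those bases could not be assigned to either strand with certainty.

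Col4a3, Col4a4 and Col4a5 form the network known from kidney glomeruli and also found beneath the seminiferous epithelium. Col4a4 rose by the smallest called amount, with 12.8, 15.3 and 14.7 CPM in the WT libraries and 19.4, 16.2 and 16.4 CPM in the KO libraries (log2 fold change 0.29 ± 0.10, adjusted p = 0.0423). The call depended on the fit and the libraries: the LFC fell short of the threshold with exon length and GC trends removed (0.14, adjusted p = 0.314), in DESeq2 with and without the littermate block (0.26 in each), with DESeq2 size factors in edgeR (0.26) and on leaving out a library (0.21 without WT1, 0.34 without WT2, 0.31 without WT3 and 0.20 without KO1). Col4a3 was at 9.70, 9.67 and 10.1 CPM in WT and 10.9, 11.4 and 11.1 CPM in KO (log2 fold change 0.18 ± 0.09, adjusted p = 0.139), higher in 3 of 3 pairs but not called. It starts 71 bases from Col4a4, on the other strand, and 5.65% of its exon length is shared with an antisense transcript.

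The X-linked chains Col4a5 and Col4a6 start 1308 bases apart on opposite strands (Col4a5 at chrX:141475385-141689234, plus strand, and Col4a6 at chrX:141165403-141474076, minus strand). Col4a5 rose, with 6.43, 5.02 and 7.39 CPM in the WT libraries and 9.34, 12.2 and 11.1 CPM in the KO libraries (log2 fold change 0.78 ± 0.15, adjusted p = 0.00179). Col4a6 had 4.38, 3.37 and 5.36 CPM in the WT libraries and 3.10, 4.15 and 2.91 CPM in the KO libraries and was not called (log2 fold change -0.38 ± 0.21, adjusted p = 0.159).

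Of the 6 beaded filament chains, 3 rose and 3 were not called. Type VI collagen anchors cells to the surrounding matrix and is assembled from Col6a1, Col6a2 and another chain, most often Col6a3. Col6a1 had 9.33, 10.9 and 12.5 CPM in the WT libraries and 20.0, 22.0 and 22.9 CPM in the KO libraries (log2 fold change 0.99 ± 0.11, adjusted p = 6.18e-05). Col6a2, whose upstream sequence is shown above, had 4.27, 3.69 and 5.30 CPM in the WT libraries and 7.43, 10.3 and 9.58 CPM in the KO libraries (log2 fold change 1.04 ± 0.17, adjusted p = 6.24e-04). Both rose nearly to the same extent. Col6a3 was not called, at 5.69, 7.06 and 4.85 CPM in WT and 6.91, 6.86 and 5.51 CPM in KO (log2 fold change 0.14 ± 0.16, adjusted p = 0.518).

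The alternatives to Col6a3, namely Col6a4, Col6a5 and Col6a6, lie in a row on the minus strand of chromosome 9, with 27.9 kb between Col6a6 and Col6a5 and 28.8 kb between Col6a5 and Col6a4. Col6a6 had the highest LFC of all collagens, with 0.949, 0.382 and 0.789 CPM in the WT libraries and 2.58, 3.93 and 2.91 CPM in the KO libraries (log2 fold change 2.11 ± 0.30, adjusted p = 2.96e-04), which is a 4.31-fold rise. In reads this was 18, 6 and 14 counts in WT against 50, 71 and 55 in KO. Col6a4 was not called, with 23.0, 24.2 and 26.5 CPM in WT and 24.5, 25.0 and 22.3 CPM in KO (log2 fold change -0.04 ± 0.08, adjusted p = 0.73). Col6a5 was higher in 2 of 3 pairs and not called (LFC 0.33 ± 0.14, adjusted p = 0.0802), and it reached the threshold on leaving out a library (0.47 without WT1 and 0.42 without KO1).

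Col6a2, Col6a1 and Col18a1 are neighbours on the minus strand of chromosome 10, with 85.2 kb between Col6a2 and Col6a1 and 326 kb between Col6a1 and Col18a1, and all 3 rose. Col18a1 is a basement membrane multiplexin whose end fragment is endostatin. It had 18.9, 19.6 and 22.4 CPM in the WT libraries and 45.6, 51.7 and 46.7 CPM in the KO libraries (log2 fold change 1.24 ± 0.08, adjusted p = 3.05e-06). The other multiplexin, Col15a1, was at 25.9, 25.4 and 27.4 CPM in WT and 25.8, 26.5 and 26.7 CPM in KO (log2 fold change 0.00 ± 0.07, adjusted p = 0.967). Elsewhere, Col3a1 rose while Col5a2, 24.6 kb away on chromosome 1, was not called, and the difference between such neighbours was not tested.

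FACIT members had the highest summed CPM of the classes, and of 8 tested, 4 fell, 1 rose and 3 were not called. The class summed to 515, 509.5 and 498 in WT and 426, 427 and 434 in KO (CPM). Col22a1, a collagen known from tissue junctions such as muscle to tendon, was the most abundant collagen in every library. It had 271, 271 and 267 CPM in the WT libraries and 222, 212 and 216 CPM in the KO libraries (log2 fold change -0.32 ± 0.04, adjusted p = 2.57e-04). The SD between libraries was 2.18 CPM in WT and 4.72 CPM in KO, against a difference of means from 269.9 to 217 CPM.

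Col16a1, a minor fibril-associated collagen, had 118, 111 and 111 CPM in the WT libraries and 90.2, 102 and 102 CPM in the KO libraries (log2 fold change -0.21 ± 0.06, adjusted p = 0.0127). That fall was not called with library size alone (-0.07) or without WT1 (-0.18). Col20a1 had 59.9, 60.0 and 55.9 CPM in the WT libraries and 50.0, 43.9 and 46.2 CPM in the KO libraries (log2 fold change -0.33 ± 0.06, adjusted p = 0.00163). Col9a1, a chain of the cartilage FACIT type IX, had 5.32, 5.47 and 5.70 CPM in the WT libraries and 4.13, 4.26 and 4.45 CPM in the KO libraries (log2 fold change -0.36 ± 0.13, adjusted p = 0.0439). Its call rested on the full set of libraries and on the fit: it was lost with library size alone (-0.22, adjusted p = 0.203), with no filter (-0.36), with the littermate block in edgeR (-0.36, adjusted p = 0.0624), in DESeq2 with and without the block (-0.39 in each) and on leaving out any 1 library (-0.39 to -0.33).

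Col14a1, which binds fibrils near their surface, was the FACIT that rose, with 22.8, 20.3 and 19.6 CPM in the WT libraries and 24.7, 26.0 and 26.8 CPM in the KO libraries (log2 fold change 0.30 ± 0.08, adjusted p = 0.00967). The rise was not called once the exon length and GC trends were removed (0.15) or with the littermate block in DESeq2 (0.28, adjusted p = 0.106). Col9a3, Col12a1 and Col19a1 had LFC of -0.16 to 0.04 and overlapping groups. For Col9a3, 6.07% of exon length overlaps Tcfl5 on the opposite strand.

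Of the 4 transmembrane collagens, 3 fell. Col23a1 showed the largest fall among the called members, with 7.22, 8.01 and 8.12 CPM in the WT libraries and 4.44, 4.54 and 5.29 CPM in the KO libraries (log2 fold change -0.71 ± 0.13, adjusted p = 0.00127). Col17a1, the hemidesmosome collagen of epithelia, had 3.22, 3.18 and 4.34 CPM in the WT libraries and 2.22, 2.27 and 2.86 CPM in the KO libraries (log2 fold change -0.55 ± 0.20, adjusted p = 0.0417). Col25a1, a collagen of neurons, had 4.32, 4.90 and 3.38 CPM in the WT libraries and 2.79, 3.04 and 3.18 CPM in the KO libraries (log2 fold change -0.48 ± 0.18, adjusted p = 0.0465). Of these 3 falls, that of Col23a1 was called under all 16 alternatives.

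The call of Col17a1 was lost with library size alone (-0.41), in DESeq2 with and without the littermate block (-0.57 in each) and on leaving out a library (-0.62 without WT2, -0.39 without WT3, -0.48 without KO1 and -0.49 without KO2). That of Col25a1 was lost with library size alone (-0.34), in DESeq2 (-0.51, and -0.50 with the block) and on leaving out a library (-0.46 without WT1, -0.36 without WT2, -0.43 without KO1, -0.49 without KO2 and -0.52 without KO3). Col13a1, a collagen of cell adhesion sites, stood apart from the other transmembrane members at 0.896, 0.382 and 0.507 CPM in WT and 1.39, 0.940 and 1.01 CPM in KO (log2 fold change 0.87 ± 0.35, adjusted p = 0.0643). It was higher in 3 of 3 pairs and was called with the littermate block in edgeR (0.90, adjusted p = 0.0365), with library size alone (1.01) and without WT1 (1.30).

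Neither tested short-chain collagen was called. Col8a1 had 2.69, 2.35 and 2.09 CPM in WT and 2.11, 2.27 and 1.96 CPM in KO (log2 fold change -0.17 ± 0.20, adjusted p = 0.504), and Col8a2 had 1.27, 1.21 and 1.52 CPM in WT and 1.03, 1.38 and 1.11 CPM in KO (log2 fold change -0.18 ± 0.25, adjusted p = 0.576). The anchoring fibril collagen Col7a1, Col26a1 and Col28a1 were not called either. Col26a1 had 11.8, 8.78 and 11.8 CPM in WT and 12.2, 13.7 and 13.9 CPM in KO (log2 fold change 0.29 ± 0.12, adjusted p = 0.0704) and Col28a1 had 8.38, 6.10 and 5.13 CPM in WT and 7.38, 5.26 and 6.46 CPM in KO (log2 fold change -0.04 ± 0.19, adjusted p = 0.871). Leaving out KO1 brought Col26a1 past the threshold (0.35), and leaving out WT3 did so for Col7a1 (0.75 against 0.41). Col4a3bp, the rule's match that is no collagen, was not called, at 138, 143 and 137 CPM in WT and 139, 133 and 145 CPM in KO (log2 fold change -0.01 ± 0.05, adjusted p = 0.921).

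The order of the members by level was compared per length, as CPM divided by kb of GENCODE exon. That length joins the exons of all transcripts of a gene and can exceed the length of its main transcript. It was 12.4 kb for Col1a2 and 6.56 kb for Col1a1, and the ranks and shares below depend on it. In both genotypes Col22a1 was first (29.3 CPM per kb in WT and 23.5 CPM per kb in KO), Col16a1 next (16.8 CPM per kb in WT and 14.5 CPM per kb in KO) and Col20a1 after it (11.4 CPM per kb in WT and 9.08 CPM per kb in KO), and none of these neighbours overlapped between libraries. Col22a1 alone made up 26.0% of the summed collagen level per kb in WT and 19.9% in KO. Col2a1 was at rank 4 in WT and at rank 8 in KO. In KO, ranks 4 and 5 were held by Col18a1 (2.89 CPM per kb in WT and 6.84 CPM per kb in KO) and Col4a1 (2.51 CPM per kb in WT and 6.50 CPM per kb in KO), which had ranks 10 and 12 in WT. Those 2 overlapped each other in the KO libraries, and Col4a2, Col14a1, Col18a1 and Col6a4 overlapped their neighbours in WT. Col1a2 (1.48 CPM per kb in WT and 3.24 CPM per kb in KO), Col3a1 (1.22 CPM per kb in WT and 2.72 CPM per kb in KO) and Col1a1 (1.13 CPM per kb in WT and 2.41 CPM per kb in KO) had ranks 14, 19 and 21 in WT and 12, 14 and 16 in KO. Col6a6 was the lowest tested member in WT, at rank 42, and reached rank 33 in KO.

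**Figure D3:**
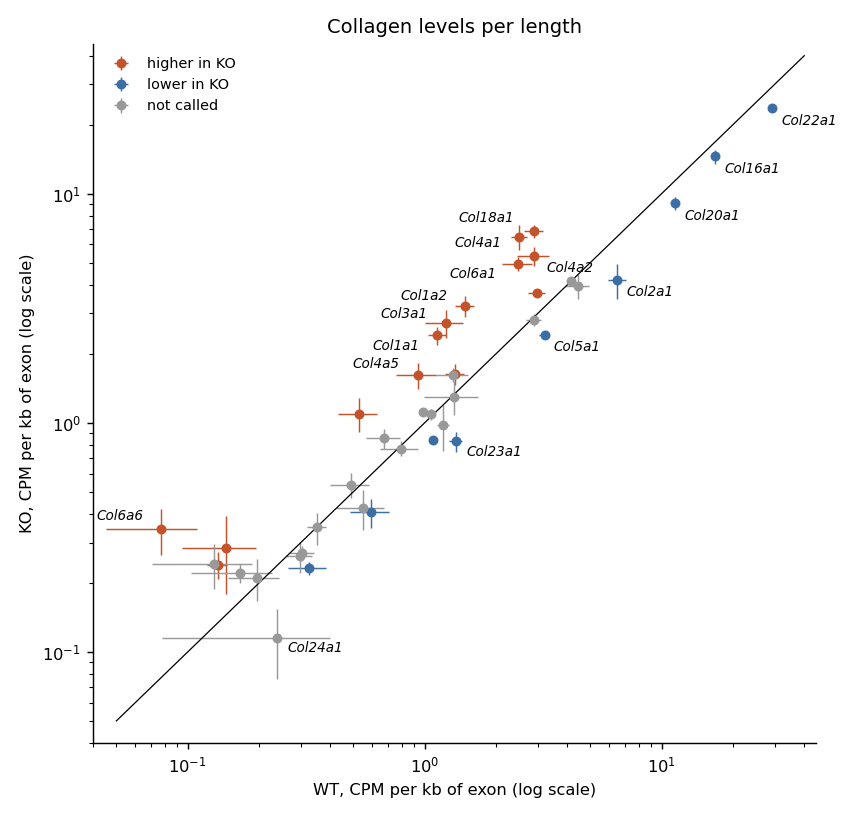
Mean level of the 42 tested collagen genes in WT (x axis) and KO (y axis), as CPM per kb of exon on log scales, with bars of 1 SD over 3 libraries and the line of equal levels. The most abundant members, Col22a1, Col16a1, Col20a1 and Col2a1, lie below the line, and Col18a1, Col4a1 and the type I and III chains lie above it.

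As a share of all counts, without TMM adjustment, the 44 collagen genes took 838, 811 and 831 CPM in the WT libraries and 894, 971 and 982 CPM in the KO libraries (means 827 ± 13.9 and 949 ± 48.1 CPM, SD, n = 3), a log2 ratio of 0.20. With TMM-adjusted library sizes the log2 ratio was 0.06, so the size of the difference in share depended on the scaling.

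Several collagen molecules are built from fixed sets of chains, so ratios of counts between partner chains were compared within libraries, where the scaling cancels. Col1a1 and Col3a1 were also compared, although they belong to different collagens, types I and III. Of 11 pairs listed, 10 had at least 10 counts of both chains in every library. With 3 libraries against 3, the two-sided exact permutation test cannot give a p under 0.1, and no pair could pass 0.05. The ratio of Col1a1 to Col1a2 was 0.393, 0.447 and 0.374 in WT and 0.395, 0.402 and 0.381 in KO, a log2 difference of -0.04 (exact p = 0.9). The ratio of Col6a1 to Col6a2 was 2.19, 2.95 and 2.35 in WT and 2.69, 2.12 and 2.39 in KO, a log2 difference of -0.05 (exact p = 0.7). Both ratios overlapped between genotypes, and so did Col1a1 to Col3a1, Col4a3 to Col4a4, Col5a1 to Col5a2 and Col8a1 to Col8a2, with log2 differences of -0.51 to 0.02.

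The other 4 ratios did not overlap between genotypes, each at the smallest exact p of 0.1 (0.25 after Benjamini-Hochberg adjustment over the 10 pairs). Col4a5 to Col4a6 was 1.47, 1.49 and 1.38 in WT and 3.02, 2.93 and 3.82 in KO, a log2 difference of 1.16. Col11a1 to Col11a2 was 0.467, 1.00 and 0.830 in WT and 1.24, 1.96 and 1.28 in KO (log2 difference 1.00). Col4a1 to Col4a2 was 1.10, 0.945 and 0.907 in WT and 1.37, 1.29 and 1.45 in KO (log2 difference 0.48). In each of these the first chain took a larger part in all 3 KO libraries. Col6a3 to Col6a1 went the other way, from 0.610, 0.649 and 0.389 in WT to 0.346, 0.312 and 0.241 in KO (log2 difference -0.86).

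**Figure D4:**
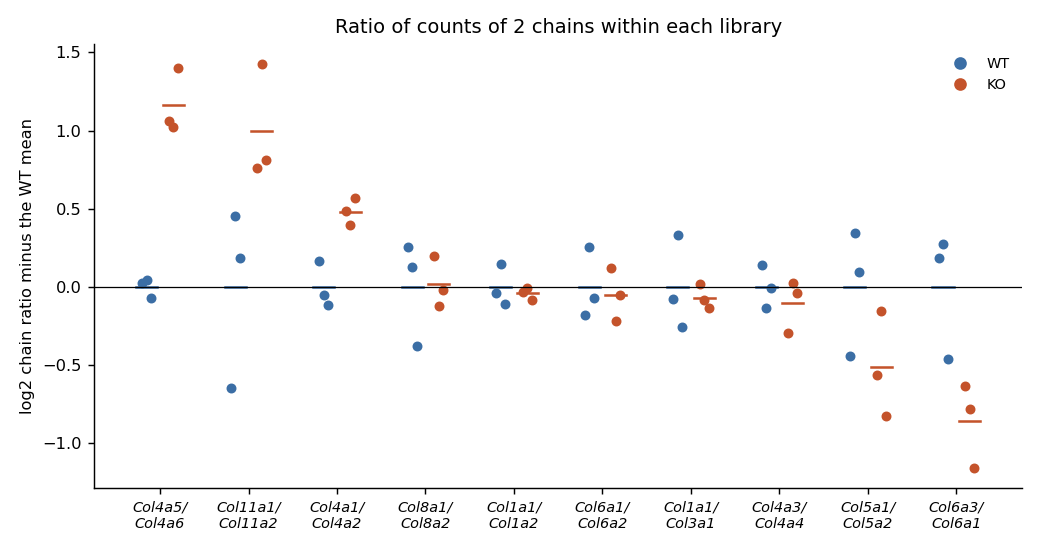
Log2 ratio of counts of 2 chains within each library, minus the mean of the WT libraries, for the 10 pairs computed (WT blue, KO orange, bars at group means). Col4a5/Col4a6, Col11a1/Col11a2 and Col4a1/Col4a2 lie higher in KO and Col6a3/Col6a1 lower without overlap, and the other pairs overlap.

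Enzymes that make and fold collagen were listed with the proteinases, cross-linking enzymes, fibril-bound proteins and receptors that act on it. Of 39 tested genes on this list, 24 rose, 2 fell and 13 were not called, with a median LFC of 0.62, against the shares of 24.8% and 20.6% among all genes. In the endoplasmic reticulum group, which hydroxylates and folds chains, 8 of the 10 tested rose. Of 18 genes listed for this group, 12 were among the deposited symbols. P3h1, P3h2, P3h3, P3h4, Colgalt1 and Mia3 were absent, and P4ha3 and Colgalt2 did not pass the filter. Plod2, a lysyl hydroxylase, had 9.60, 7.12 and 8.06 CPM in the WT libraries and 19.9, 25.1 and 30.4 CPM in the KO libraries (log2 fold change 1.60 ± 0.16, adjusted p = 2.86e-05). P4ha2, a prolyl hydroxylase subunit, had 5.69, 6.17 and 6.20 CPM in WT and 9.29, 11.1 and 10.7 CPM in KO (log2 fold change 0.78 ± 0.12, adjusted p = 4.02e-04). The collagen chaperone Serpinh1, named after its values were seen, was not called, at 7.96, 7.63 and 16.2 CPM in WT and 13.6, 10.7 and 14.5 CPM in KO (log2 fold change 0.28 ± 0.24, adjusted p = 0.368), and was called without WT3 (0.73).

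Among procollagen proteinases and enhancers, 4 of 8 rose. Pcolce, which speeds removal of the carboxyl propeptide, had 35.6, 38.9 and 45.4 CPM in the WT libraries and 82.8, 123 and 114 CPM in the KO libraries (log2 fold change 1.42 ± 0.13, adjusted p = 2.24e-05). Adamts2, which removes the amino propeptide, had 4.59, 4.07 and 4.45 CPM in WT and 8.92, 9.57 and 11.5 CPM in KO (log2 fold change 1.19 ± 0.14, adjusted p = 7.31e-05). Of the 5 lysyl oxidases, the enzymes that cross-link fibrils, 2 rose and 1 fell. Loxl4 had an LFC of 1.31 ± 0.34 (adjusted p = 0.00836) and Loxl2 one of 1.26 ± 0.18 (adjusted p = 2.84e-04). Loxl1 had 19.3, 20.1 and 20.0 CPM in WT and 17.8, 15.8 and 16.3 CPM in KO (log2 fold change -0.25 ± 0.08, adjusted p = 0.0246). Its fall was not called in DESeq2 with or without the littermate block (-0.28 in each), with library size alone (-0.11) or on leaving out a library (-0.24 without WT2, -0.25 without WT3, -0.21 without KO2 and -0.23 without KO3). Lox, also named after its values were seen, was not called (LFC 0.68 ± 0.36, adjusted p = 0.148), but was without WT3 (1.16).

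Fibril-associated proteoglycans and glycoproteins rose in 5 of 7 cases. Biglycan (Bgn) had 16.9, 20.1 and 23.6 CPM in the WT libraries and 43.5, 47.1 and 46.6 CPM in the KO libraries (log2 fold change 1.18 ± 0.10, adjusted p = 1.36e-05). Fibromodulin (Fmod) had 0.580, 0.699 and 1.58 CPM in WT and 1.55, 2.21 and 2.81 CPM in KO (log2 fold change 1.19 ± 0.36, adjusted p = 0.02), a call lost on leaving out a library (0.91 without WT1, 1.03 without WT2 and 0.98 without KO3). Of 9 tested collagen receptors, 5 rose and 1 fell. Ddr1, a receptor tyrosine kinase for collagen, had 17.3, 19.1 and 20.5 CPM in the WT libraries and 60.3, 82.4 and 70.8 CPM in the KO libraries (log2 fold change 1.91 ± 0.11, adjusted p = 1.19e-06). Its relative Ddr2 had 5.06, 5.02 and 5.70 CPM in WT and 11.2, 11.9 and 11.9 CPM in KO (log2 fold change 1.15 ± 0.11, adjusted p = 2.55e-05). The integrin subunit Itga1 fell slightly, with 66.3, 63.4 and 61.5 CPM in WT and 55.9, 53.2 and 55.6 CPM in KO (log2 fold change -0.22 ± 0.05, adjusted p = 0.00668), and the fall was not called with library size alone (-0.08).

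Markers of several testis cell types moved with genotype beside the collagen genes. Summed levels (CPM) of the markers of Leydig cells, the steroid-producing interstitial cells, were 735, 756 and 743 in WT and 1661, 2117 and 1991 in KO, and 6 of 6 rose. Interstitial fibroblast markers summed to 28.6, 28.0 and 31.5 in WT and 51.4, 58.1 and 62.0 in KO, and 4 of 5 tested rose. Sertoli cell markers, 9 of 9 of which rose, summed to 903, 942 and 952 in WT and 1384, 1673 and 1652 in KO. None of these 3 sums overlapped between genotypes.

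Macrophage markers rose in 7 of 7 cases, with sums of 74.7, 78.1 and 77.4 in WT and 142, 148 and 141 in KO. Endothelial markers summed to 36.5, 38.1 and 45.6 in WT and 52.6, 59.1 and 57.0 in KO, with 2 of 7 called higher. Peritubular myoid and smooth muscle markers summed to 310.0, 369 and 366 in WT and 325, 322 and 309 in KO, with overlapping groups. Most of that sum was Actg2, which fell from 238, 282 and 282 CPM in WT to 217, 203 and 194 CPM in KO (log2 fold change -0.39 ± 0.07, adjusted p = 0.00126). Of the 6 markers, 4 rose (Acta2, Myh11, Tagln and Des, with LFC of 0.33 to 0.62) and Cnn1 was not called (0.33). The sum therefore does not show how most markers of this list moved. Elongating spermatid markers fell in 6 of 6 cases, summing to 17234, 17290.1 and 18076 in WT and 12112, 10594 and 9815 in KO, and spermatocyte markers in 4 of 6, summing to 1489, 1478 and 1434 in WT and 1328, 1266 and 1283 in KO. The elongating spermatid sum in KO was 0.618 of that in WT. The part of cell type proportions in the collagen values was not tested.

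**Figure D5:**
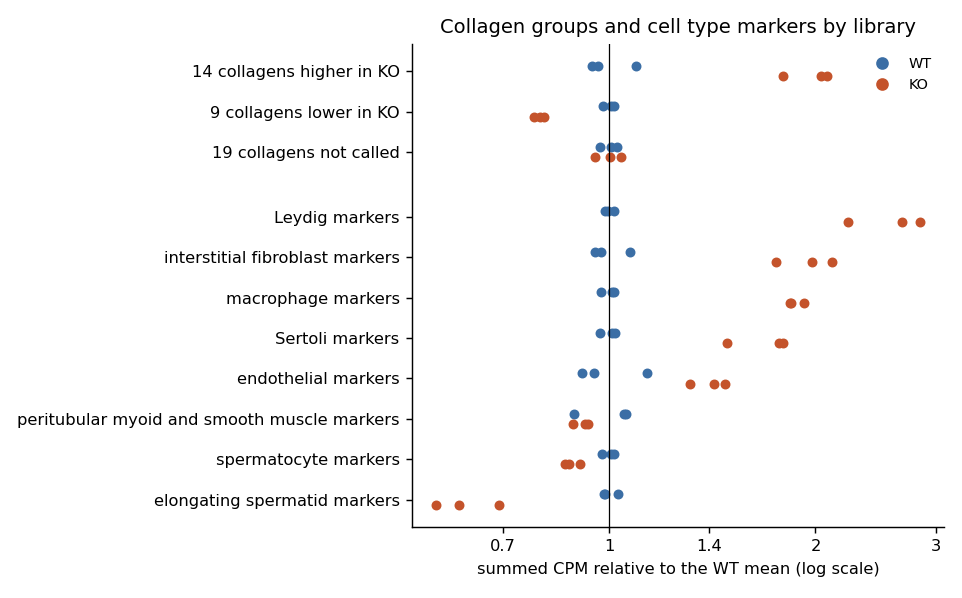
Summed CPM of collagen groups and of cell type marker lists in each library, relative to the mean of the WT libraries, on a log scale (WT blue, KO orange). The 14 collagen genes that rose, and the Leydig, fibroblast, macrophage, Sertoli and endothelial markers, lie above WT in all 3 KO libraries, and the 9 collagen genes that fell, the spermatocyte and the elongating spermatid markers lie below. The collagen groups were formed by the calls in these same libraries, so their positions are no test, whereas the marker lists were not formed by call.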

How the data were processed

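RNA from whole testes was extracted with Trizol and sequenced as 50 by 50 base paired-end reads, and the authors aligned reads to mm10 with TopHat and deposited whole-number counts per gene symbol in 1 table. The counting tool, annotation and strand setting are not given in the sources used here. Columns of the authors' own comparison (mean, fold change, its error, statistic and p-values, 6 in all) were not used. The ChIP-seq samples were not used here. Of 17933 rows, 2 repeat a symbol, leaving 17931, and 0 rows name no gene.

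The deposited counts were filtered with filterByExpr (minimum count 10), scaled by TMM and tested with the quasi-likelihood test of edgeR 4.0.16 in R 4.3.3, with no term but genotype, and p-values were adjusted by Benjamini-Hochberg over 14640 genes (threshold 0.05). On simulated counts with a common dispersion and 200 of 14560 genes changed, the test recovered 189 and made 9 false calls. With 3634 and 3015 genes called here, that setting differs from these data and does not give their error rate. The 16 alternatives included DESeq2 1.42.0, other scalings and filters, removal of exon length and GC trends, littermate pair as a block and leaving out each library. The labels number WT and KO libraries as pairs and the study's text calls them littermates. Deviations from group means correlated at 0.145, 0.0363 and 0.121 within pairs. Between WT and KO libraries of different pairs the correlations ran from -0.123 to 0.0330, so pair 2 was close to the upper end of that range. No 2 libraries of the same genotype agreed within sampling noise. Exon lengths, GC and gene bounds are from GENCODE M21. Chain ratios used an exact permutation test over libraries, and classes, pathway genes and markers were lists from general knowledge. The members and lists were chosen with earlier results of these data known. Genes with values in each library are the 2 most abundant per class, the 5 largest rises and falls, all that fell, chain pairs and, per pathway role, the 2 largest called changes and all called falls; other members are named outside this rule, after their values were seen.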

Additional observations from a re-analysis of the deposited data

How the results depend on the processing

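Over 54 named genes and all alternatives, 754 values kept direction and side of the threshold, 59 lost the call, 23 gained it and 26 changed sign, the last all in genes not called. The counts of collagen genes higher (14) and lower (9) were 18 and 5 with library size alone, 12 and 15 with exon length and GC trends removed, 11 and 14 with those trends removed and the littermate block, 12 and 6 in DESeq2, and 12 to 15 and 6 to 8 on leaving out a library. With a replicate block for littermates, edgeR gave 15 and 9: Col9a1 was lost and Col13a1 and Col24a1 were gained, and the block in edgeR changed no other collagen call. In DESeq2 with the block they were 11 and 6. Over all genes, calls higher and lower (3634 and 3015) were 5343 and 1268 with library size alone. They were 2717 and 5123 with trends removed, and 2855 and 5223 with trends removed and the block. In DESeq2 they were 2839 and 2935, and 2249 and 2355 with the block. The block in edgeR gave 3736 and 3007, and leaving out a library gave 2978 to 3990 and 2134 to 3405. The median LFC of the collagen genes (0.06) was 0.20 with library size alone, -0.070 with trends removed, -0.066 with trends removed and the block, and 0.013 to 0.14 on leaving out a library. Pathway genes lower (2) numbered 1 in DESeq2, 0 with library size alone (where 5343 genes were called higher and 1268 lower), 1 in DESeq2 with the block and 1 to 2 on leaving out a library. The log2 ratio of the collagen share (0.20) was 0.059 with TMM-adjusted sizes. Chain ratios kept the same value under pairing, with a smallest sign-flip exact p of 0.25.

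On leaving out a library, chain ratio differences changed sign for Col1a1/Col1a2 (-0.10 to 0.033), Col6a1/Col6a2 (-0.14 to 0.075), Col8a1/Col8a2 (-0.17 to 0.15) and Col1a1/Col3a1 (-0.20 to 0.10). The LFC did so for Col11a2 (-0.083 to 0.12), Col15a1 (-0.019 to 0.034), Col28a1 (-0.19 to 0.18), Col4a3bp (-0.032 to 0.029), Col5a2 (-0.059 to 0.30) and Col6a4 (-0.085 to 0.019). With library size alone it changed sign for Col11a2 (0.13), Col28a1 (0.094), Col4a3bp (0.13) and Col6a4 (0.10). With trends removed it did so for Col15a1 (-0.18), Col5a2 (-0.050) and Col6a3 (-0.027), and with the block added these were -0.18, -0.039 and -0.024. Col15a1 also did in DESeq2 (-0.022), with its size factors in edgeR (-0.022) and in DESeq2 with the block (-0.021). The cause of these changes was not tested. Depth limits the members under about 1 CPM: Col13a1 and Col6a6 had as few as 6 counts in a library.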
